A study of Mus musculus with 15 samples.

Results

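The marker genes of Kupffer cells, the resident macrophages of the liver, were followed in liver RNA from mice that carried LbNOX or luciferase and were gavaged with ethanol or water. The genes named are Clec4f, Vsig4, Timd4, Cd5l, Adgre1, Marco, C1qa, C1qb, C1qc and Cd68, found by their symbol. Of the 10 names, 9 were among the 16330 genes of the table. Adgre1 is listed there under its older symbol Emr1. It is described beside the other 9 and left out of every count of members. A low-level filter (a normalized count of at least 10 in at least 3 libraries) passed 8 of the 9, all but Timd4, and 13570 genes in all.

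The 4 groups were LbNOX livers after ethanol (3 libraries, M13 to M15), LbNOX livers after water (4 libraries, M6 to M9), luciferase livers after ethanol (3 libraries, M10 to M12) and luciferase livers after water (5 libraries, M1 to M5). All livers were taken 6 h after the gavage. LbNOX is a bacterial NADH oxidase that turns NADH into NAD+ while forming water, and luciferase stands as its control protein. The labels give neither the age or strain of the mice nor how LbNOX was delivered and which liver cells carried it. Wild-type or ChREBP animals are named in the series' design text. The groups here follow the titles and the header, which speak of luciferase and LbNOX instead. The labels do not say that each library came from a different animal, so the p-values reflect only how far these samples spread, which may be technical.

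Kupffer cells line the liver sinusoids, where they take up particles, microbes and dying cells from portal blood. They keep their identity through signals from neighbouring endothelial cells, stellate cells and hepatocytes, and in macrophages generally the factors PU.1 and MAF bind regulatory regions of such genes. The markers fall into receptors for glycans, complement and dying cells, a lysosomal protein, and secreted proteins that include the C1q chains. C1q starts the classical complement pathway and also coats dying cells.

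The 3 C1q chain genes lie side by side on the minus strand of mouse chromosome 4 (GRCm38, GENCODE vM21), with C1qb at 136880129 to 136886187, C1qc at 136889804 to 136893065 and C1qa at 136895917 to 136898803, a span of 18.7 kb. Cd5l is on chromosome 3 (87357881 to 87371073, plus strand), Clec4f on chromosome 6 (83644542 to 83656187, minus strand), and no member's annotated span overlaps another gene. RefSeq promoter windows (GRCm38.p6, 250 bases before to 50 after the start) were found for 8 of the 10 genes, and the following 4 are shown because Cd5l, C1qb and C1qc varied together across the libraries while Clec4f varied apart from them. Capitals mark GAGGAA, the core of the PU.1 site, and TGCTGA, a part of the MAF recognition element, on either strand.
Cd5l promoter, chr3:87357631-87357930, plus strand: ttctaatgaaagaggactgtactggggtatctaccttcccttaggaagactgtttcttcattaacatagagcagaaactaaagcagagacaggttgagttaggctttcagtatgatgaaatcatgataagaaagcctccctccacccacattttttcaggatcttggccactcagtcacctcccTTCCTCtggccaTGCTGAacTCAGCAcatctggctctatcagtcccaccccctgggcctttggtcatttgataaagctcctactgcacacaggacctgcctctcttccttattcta
C1qb promoter, chr4:136886151-136886450, minus strand: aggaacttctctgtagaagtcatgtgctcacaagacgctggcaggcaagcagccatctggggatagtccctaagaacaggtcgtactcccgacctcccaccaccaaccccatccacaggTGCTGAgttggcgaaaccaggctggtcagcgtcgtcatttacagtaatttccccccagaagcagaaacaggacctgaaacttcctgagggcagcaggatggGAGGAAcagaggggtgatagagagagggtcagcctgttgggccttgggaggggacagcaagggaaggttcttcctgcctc
C1qc promoter, chr4:136892865-136893164, minus strand: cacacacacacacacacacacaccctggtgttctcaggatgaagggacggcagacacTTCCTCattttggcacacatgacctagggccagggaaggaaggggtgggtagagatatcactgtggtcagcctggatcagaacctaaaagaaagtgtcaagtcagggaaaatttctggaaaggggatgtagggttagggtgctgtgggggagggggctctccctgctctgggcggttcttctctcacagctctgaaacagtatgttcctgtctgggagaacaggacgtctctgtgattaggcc
Clec4f promoter, chr6:83656067-83656366, minus strand: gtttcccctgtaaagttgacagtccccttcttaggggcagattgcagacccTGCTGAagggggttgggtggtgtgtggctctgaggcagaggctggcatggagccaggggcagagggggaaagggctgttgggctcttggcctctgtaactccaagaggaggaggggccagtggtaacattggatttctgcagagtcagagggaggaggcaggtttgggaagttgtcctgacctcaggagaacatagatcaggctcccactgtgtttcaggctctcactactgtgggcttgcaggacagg
GAGGAA was in 6 of the 8 windows, against 28.3% of 32851 promoter windows of the same length, and TGCTGA in 5 of the 8, against 19.5%. The 2 motifs share no letters in any window shown. The windows of Cd5l and C1qb held both motifs, that of C1qc held GAGGAA alone, and that of Clec4f held TGCTGA alone. The window of Vsig4, which varied with Clec4f and is not shown, held both motifs. GAGGAA was therefore not confined to the genes that varied with Cd5l. These are letter matches and show neither a bound site nor a cause of any difference below.

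Library depth, recovered from the normalized counts, lay between 10.6 and 15.7 M reads for LbNOX ethanol, between 13.7 and 20.6 M for LbNOX water, between 12.2 and 14.4 M for luciferase ethanol, and between 14.5 and 23.7 M for luciferase water libraries. Before any comparison, 3 libraries stood apart for the members. Library M3 (luciferase, water) was the highest of 15 for Cd5l, C1qa, C1qb, C1qc, Cd68 and Adgre1 and 14th for Clec4f and Vsig4. Library M8 (LbNOX, water) was second for Cd5l, Adgre1 and the 3 C1q chains and 13th for Marco. Library M15 (LbNOX, ethanol) was the highest for Clec4f, Vsig4, Timd4 and Marco. Values without some of these libraries are given beside the results.

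The levels of the members spanned more than 2 orders of magnitude per length of exon. As mean normalized counts per kb over the 15 libraries, Cd5l, a secreted protein that keeps macrophages alive, stood at 393. The C1q chains followed, with C1qb at 314, C1qa at 251.2 and C1qc at 154. Cd68, a lysosomal and endosomal glycoprotein of phagocytes in general, was at 116, and Adgre1, which encodes the F4/80 antigen, at 43.0. Marco, a scavenger receptor, was at 19.8 per kb and Clec4f, a lectin of mouse Kupffer cells that binds glycans, at 18.5. Vsig4, a receptor for complement C3 fragments, was at 7.90 per kb, and Timd4, a receptor for phosphatidylserine on dying cells, at 1.32.

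Most neighbours in this order kept it in nearly every library. C1qb exceeded C1qa, C1qa exceeded C1qc, Cd68 exceeded Adgre1, Clec4f exceeded Vsig4, and Vsig4 exceeded Timd4 in 15 of 15 libraries each. Adgre1 exceeded Marco in 14, C1qc exceeded Cd68 in 13, and Cd5l exceeded C1qb in 12. Marco and Clec4f could not be put in order, since Marco was the higher in 6 of 15 libraries only. Lengths were the union of annotated exons, so a gene transcribed mainly as a short form is understated. In counts not divided by length, C1qc stood above C1qa, at a mean ratio of 1.13. The order of that pair thus rests on the lengths used, 1931 bases for C1qc and 1040 for C1qa.

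Clec4f was low and variable. Its normalized count was 34.6, 61.0 and 133 in LbNOX ethanol libraries, 58.3, 49.2, 29.3 and 94.5 in LbNOX water libraries, 19.4, 45.5 and 27.4 in luciferase ethanol libraries, and 11.99, 28.2, 12.5, 54.0 and 28.0 in luciferase water libraries. M15 was the highest and M1 the lowest, and neighbouring groups overlapped. Recovered reads ran from 15 to 110 per library.

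Vsig4 followed a similar course at a lower level. Its normalized count was 8.30, 10.8 and 31.4 in LbNOX ethanol libraries, 19.7, 7.81, 11.6 and 15.1 in LbNOX water libraries, 8.47, 10.5 and 2.49 in luciferase ethanol libraries, and 4.80, 9.997, 3.32, 17.6 and 13.99 in luciferase water libraries. All 4 groups overlapped, and the lowest library, M12, held 2 reads.

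Timd4 was at the edge of detection, with 44 reads over all 15 libraries. It was listed at 0 in M13 and M9, where a count of 0 still allows a level of up to 4.15 and 3.78 (3 reads, counting error only), and it reached 10.9 in M15, the highest library. It passed 10 in 1 library only and was not tested.

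Cd5l was the most abundant member. Its normalized count was 710, 577 and 1062 in LbNOX ethanol libraries, 676, 684, 1468 and 525 in LbNOX water libraries, 541, 475 and 617 in luciferase ethanol libraries, and 755, 604, 1685, 818 and 806 in luciferase water libraries. M3 and M8 lay above the other libraries, and the luciferase ethanol libraries overlapped the luciferase water libraries through M12, whose 617 exceeded the 604 of M2.

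The C1q chains varied least. C1qa had 248, 212 and 308 normalized counts in LbNOX ethanol libraries, 212, 231, 355 and 263 in LbNOX water libraries, 197, 198 and 242 in luciferase ethanol libraries, and 254, 194, 417, 281 and 305 in luciferase water libraries. The coefficient of variation over all libraries was 24.3% for C1qa, 28.7% for C1qb and 28.6% for C1qc, against 70.9% for Clec4f, 62.4% for Vsig4 and 82.3% for Marco, where low counts add sampling noise. M3 was the highest library for each chain.

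The 3 chains, which assemble into a single protein, kept their proportions. The ratio of C1qb to C1qa was 1.21 ± 0.083 in LbNOX ethanol, 1.29 ± 0.134 in LbNOX water, 1.38 ± 0.147 in luciferase ethanol and 1.32 ± 0.0976 in luciferase water libraries (SD, n = 3, 4, 3 and 5). Over all libraries it ran from 1.12 to 1.51, and the ratio of C1qc to C1qa ran from 0.966 to 1.29. These are ratios of normalized counts, not corrected for length. The values of the groups overlapped.

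Cd68 had 156, 108 and 258 normalized counts in LbNOX ethanol libraries, 122, 123, 216 and 86.9 in LbNOX water libraries, 61.7, 70.0 and 130 in luciferase ethanol libraries, and 191, 110, 289, 127 and 133 in luciferase water libraries. M10 and M11, both luciferase ethanol, were the lowest of all 15, while M12 of the same group lay within the range of the other groups. Marco averaged 57.0 ± 66.9 in LbNOX ethanol, 26.6 ± 4.37 in LbNOX water, 23.1 ± 12.2 in luciferase ethanol and 44.9 ± 21.9 in luciferase water libraries (SD, n = 3, 4, 3 and 5). The LbNOX ethanol mean was set by M15 at 134, beside 22.1 in M13 and 14.8 in M14.

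Adgre1 had 143, 109 and 193 normalized counts in LbNOX ethanol libraries, 113, 91.4, 250 and 74.3 in LbNOX water libraries, 100, 77.0 and 103 in luciferase ethanol libraries, and 109, 115, 317, 155 and 139 in luciferase water libraries. All 3 luciferase ethanol libraries lay below every luciferase water and every LbNOX ethanol library, and within the range of the LbNOX water libraries.

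**Figure D1:**
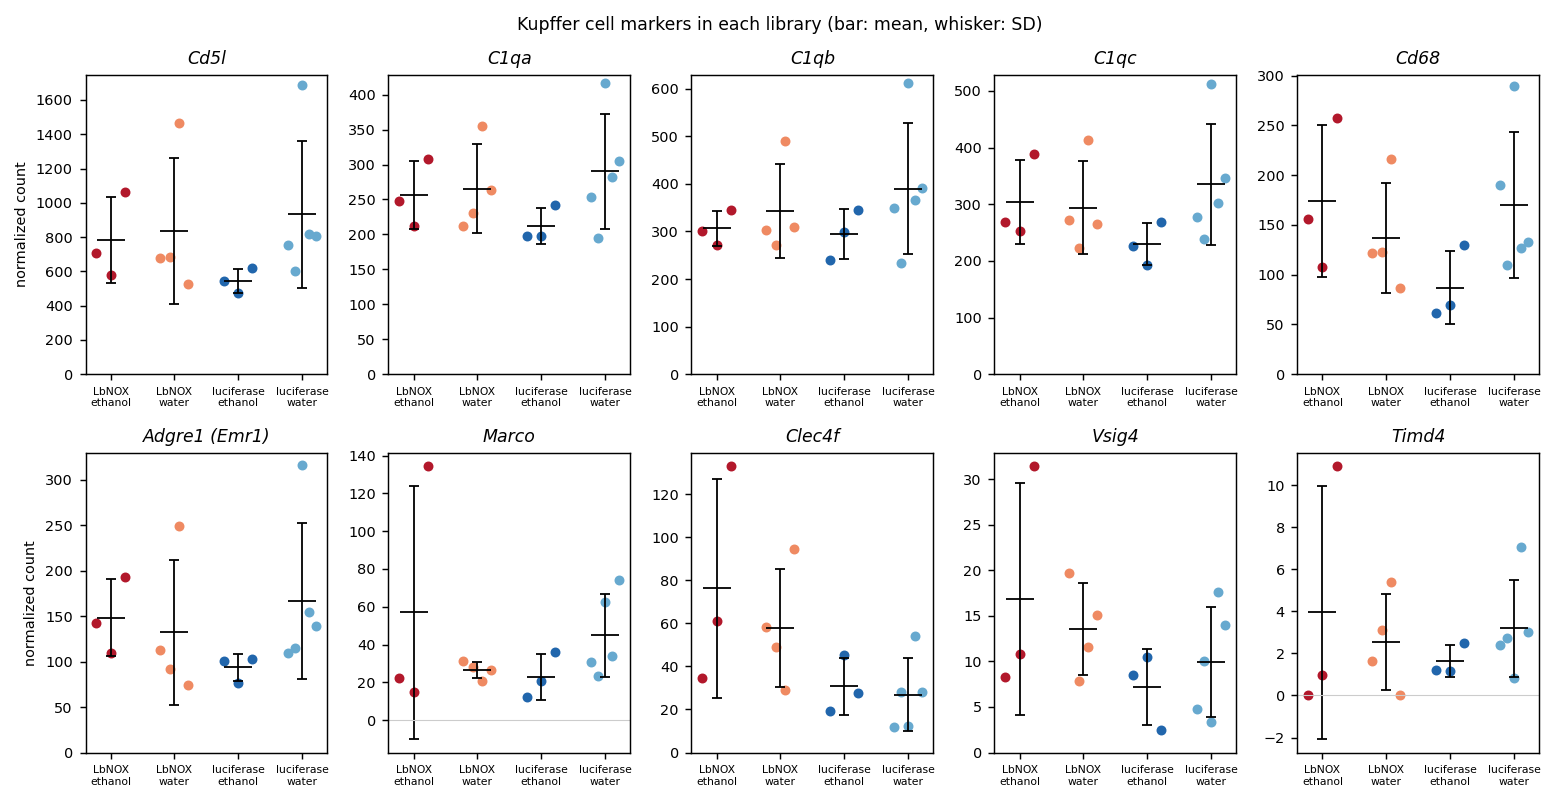
Normalized counts (vertical axes, linear) of the 10 markers in each of the 15 libraries (points) by group, with the mean (bar) and SD (whisker). Groups overlap in nearly every panel; M15 is the top point of LbNOX ethanol in all panels, at 134 for Marco and 133 for Clec4f, and M3 the top point of luciferase water for Cd5l at 1685.

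The effect of ethanol in the presence of luciferase was asked first. No member passed the test: 0 of 8 were called by limma at an adjusted p below 0.05, where 1052 of 13570 genes, 7.75%, were called. The log2 fold changes were below 0 for 7 of 8, with a median of -0.46 beside 0.01 over all genes tested. Cd5l, Cd68 and the C1q chains varied together across the libraries, as did Clec4f and Vsig4. Directions counted here and below are therefore not separate events. In bulk liver RNA, fewer Kupffer cells and less marker RNA per cell cannot be told apart.

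The largest of these was in Cd68, with a log2 fold change of -0.94 (SE 0.38, 95% interval -1.75 to -0.13) and an adjusted p of 0.16 by limma. Its mean was 87.1 ± 37.0 normalized counts after ethanol and 170 ± 73.3 after water (SD, n = 3 and 5), and the groups overlapped through M12. Cd68 was also the sole member with an unadjusted p under 0.05, as were 21.1% of all genes tested. Marco differed by -0.93 and Cd5l by -0.69 on the log2 scale (limma adjusted p 0.41 and 0.26), and Cd5l averaged 544 ± 71.2 after ethanol and 933 ± 428 after water (SD, n = 3 and 5). The highest water library was M3 at 1685, and without it Cd5l differed by -0.45, Cd68 by -0.73 and Marco by -0.78. Vsig4 differed by -0.39 (SE 0.60).

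The C1q chains differed by -0.41 for C1qa, -0.35 for C1qb and -0.51 for C1qc (limma adjusted p 0.32, 0.49 and 0.26). Their intervals ran from -0.89 to 0.07, from -0.90 to 0.20 and from -1.04 to 0.02 on the log2 scale, so each included 0 and bounded a decrease at its lower end. Clec4f was the exception in direction at 0.31, with an interval of -0.83 to 1.46. Without M3 the chains differed less, by -0.27 for C1qa, -0.17 for C1qb and -0.34 for C1qc. Without M3 the median of the members was -0.40, again with 1 of 8 above 0, and in no alternative setting was any member called.

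Groups without overlap were found for 1996 of 13570 genes, 14.7%, and for 0 of the 8 members. Adgre1 was the marker that did separate, with 93.6 ± 14.5 normalized counts after ethanol and 167 ± 85.8 after water (SD, n = 3 and 5). Its log2 fold change of -0.72 (SE 0.39) had an adjusted p of 0.31 by limma, and it was -0.46 without M3 and M8.

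Genes around the markers were read from lists, chosen like the members with results of these data known. Of 122 listed genes tested outside the members 5 were called, 4.1%, below the 7.75% of all genes. Among 17 other resident macrophage genes 1 fell, Sirpa, the receptor for the CD47 signal, at 200, 250 and 238 normalized counts after ethanol and 499, 452, 871, 352 and 410 after water. The groups did not overlap, and the log2 fold change was -1.10 (limma adjusted p 0.026). Among 9 Kupffer cell transcription factors 1 fell, Id3, a regulator needed for mouse Kupffer cell development, at 271, 354.5 and 273 after ethanol against 754, 508, 564, 631 and 457 after water. Its log2 fold change was -0.95 (limma adjusted p 0.0099). Among 8 niche genes 1 fell, Cxcl12, a chemokine of stromal cells, by 1.15 on the log2 scale (limma adjusted p 0.0027).

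Macrophage cytokine genes counted 1 fallen of 6, Il1rn, which encodes the interleukin-1 receptor antagonist. It had 35.1, 75.8 and 49.9 normalized counts after ethanol and 107, 147, 268, 117 and 137 after water, a log2 fold change of -1.503 (limma adjusted p 0.013). No gene of the efferocytosis (16), C1 complex (12), recruited monocyte (9), lipid-associated macrophage (7), dendritic cell (4), neutrophil (6), endothelial (10), stellate (8), B and plasma cell (2) or hepatocyte (8) lists passed. The genes with the smallest p in such lists were, among others, Gpnmb, a glycoprotein of lipid-laden macrophages, at -3.09 on the log2 scale, and Ms4a4c, a monocyte gene, at -1.98 (limma adjusted p 0.079 and 0.091). Those of the efferocytosis and endothelial lists were Scarb1, the receptor for high-density lipoprotein, at -0.42 and Lyve1, a hyaluronan receptor, at 1.25 (limma adjusted p 0.077 and 0.13). Among 7 T and NK cell markers Nkg7, a cytotoxic granule gene, fell by 2.36 on the log2 scale (limma adjusted p 0.049). The call on Nkg7 was kept in 7 of 23 alternative settings, that on Cxcl12 in 23 of 23, and those on Sirpa, Id3 and Il1rn were lost without M10 (largest adjusted p 0.12, 0.062 and 0.091 over all settings). Sirpa was also lost without M1, M11 or M12, and Id3 without M12.

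In LbNOX livers the differences of the markers after ethanol were of mixed sign, and every limma interval included 0. Again 0 of 8 members were called by limma, where 1 of 13570 genes, 0.00737%, was called. The members' median log2 fold change was 0.10, with 5 of 8 above 0, beside -0.0039 over all genes. Cd5l averaged 783 ± 250 normalized counts after ethanol and 838 ± 426 after water (SD, n = 3 and 4), a log2 difference of -0.03 (interval -0.78 to 0.73, limma adjusted p 0.98).

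C1qa differed by -0.04 (interval -0.54 to 0.46), C1qb by -0.13 (-0.70 to 0.44) and C1qc by 0.06 (-0.50 to 0.61). Cd68 was the largest against its error at 0.33 (SE 0.40, limma adjusted p 0.78). Clec4f differed by 0.30 (SE 0.56), Vsig4 by 0.14 (SE 0.63) and Marco by 0.42 (SE 0.62). On recovered reads Marco differed by 1.10 with DESeq2 and 1.10 with edgeR (adjusted p 0.50 and 0.53). The direction of several members turned with M15 or M8. Without M15, Clec4f differed by -0.21, Vsig4 by -0.40 and Marco by -0.52, 1 of 8 lay above 0 with a median of -0.21, and without M8, 8 of 8 lay above 0 with a median of 0.17. Without M3, M8 and M15 the count was 3 of 8. Groups without overlap were found for 10.9% of genes and 0 of 8 members. No listed gene passed the test. The nearest was Nr1h3, the transcription factor LXRα, which maintains Kupffer cell identity in mice, at -0.78 on the log2 scale (limma adjusted p 0.072). In bulk liver RNA the level of Nr1h3 is that of the whole tissue, not of Kupffer cells alone.

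LbNOX was next set against luciferase after water, which asks for an effect of the enzyme with no alcohol given. Of the members 0 of 8 were called, and 0 of 13570 genes were, 0%, by limma. The same test gave 440 genes at an unadjusted p under 0.05, edgeR called 0 and DESeq2 18. Clec4f was the exception in size among the markers, at 57.8 ± 27.3 normalized counts in LbNOX livers and 26.9 ± 17.1 in luciferase livers (SD, n = 4 and 5).

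The log2 fold change of Clec4f was 1.17 (SE 0.49, interval 0.11 to 2.22) with an unadjusted p of 0.032 in limma and an adjusted p of 0.9996, so it failed the correction. M9 and M6 of the LbNOX group lay above all 5 luciferase libraries, and M7 and M8 above 4 of the 5, where M4 at 54.0 was the highest, so the groups overlapped. Leaving out single libraries or changing the fit kept its log2 fold change between 0.90 and 1.47. Vsig4 differed by 0.55 (SE 0.55), and the other 6 members by -0.11 to -0.61, with C1qa at -0.11 (interval -0.56 to 0.33). Without M3, 5 of 8 members lay above 0, in place of 2 of 8. Groups without overlap were found for 0.936% of genes and 0 of 8 members. No listed gene passed.

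After ethanol, all 8 tested members were higher in LbNOX than in luciferase livers, but none passed the test. By limma 0 of 8 were called, where 822 of 13570 genes, 6.06%, were. The median log2 fold change was 0.61, beside 0.0036 over all genes, of which 50.3% lay above 0. The 8 directions are not separate events, since several members varied together and M15 was the highest LbNOX ethanol library for each. Clec4f had 76.2 ± 50.9 normalized counts in LbNOX livers and 30.8 ± 13.4 in luciferase livers (SD, n = 3 each), a log2 difference of 1.15 (SE 0.60, limma adjusted p 0.29).

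Vsig4 differed by 1.08 (SE 0.67, limma adjusted p 0.38) and Marco by 0.73 (SE 0.66, limma adjusted p 0.57). Cd68 differed by 0.98 (SE 0.42, interval 0.07 to 1.88, limma adjusted p 0.20), with 174 ± 76.2 in LbNOX livers and 87.1 ± 37.0 in luciferase livers (SD, n = 3 each). The secreted products differed less. Cd5l was at 0.49, C1qc at 0.39, C1qa at 0.26 and C1qb at 0.06 on the log2 scale, with intervals that all included 0.

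The size of this shift rested on M15. Without it the median of the members was 0.22 with 6 of 8 above 0, Clec4f differed by 0.65, Vsig4 by 0.53, Cd68 by 0.65, Cd5l by 0.24, C1qc by 0.20, C1qa by 0.12, C1qb by -0.025 and Marco by -0.21. Groups without overlap were found for 4012 genes, 29.6%, and for 0 of 8 members. Adgre1, outside that count, did separate, with 148 ± 42.5 normalized counts in LbNOX livers and 93.6 ± 14.5 in luciferase livers, a log2 difference of 0.63 (SE 0.43, limma adjusted p 0.43), and of 0.42 without M15.

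Of the 122 listed genes 5 rose in this comparison, 4.1%, below the 6.06% called among all genes. Of the resident macrophage genes 1 of 17 rose, Hmox1, the heme-degrading oxygenase, at 1059, 608 and 965 normalized counts in LbNOX livers and 296.5, 326.5 and 350 in luciferase livers. Its log2 fold change was 1.40 (limma adjusted p 0.033). Of the transcription factors 1 of 9 rose, Id3, at 722, 521 and 607 in LbNOX livers and 271, 354.5 and 273 in luciferase livers, a log2 fold change of 1.04 (limma adjusted p 0.016). Of 16 efferocytosis and scavenger genes 1 rose, Mfge8, a bridge between phosphatidylserine and integrins, at 1273, 1014 and 1259 in LbNOX livers and 336.5, 563 and 612 in luciferase livers, a log2 fold change of 1.27 (limma adjusted p 0.029). None of these 3 genes' groups overlapped.

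Of 6 cytokine genes 2 rose. Il1rn rose by 1.55 and Ccl2, a monocyte chemoattractant, by 2.01 on the log2 scale (limma adjusted p 0.026 and 0.048), with Ccl2 at 42.9, 32.5 and 79.8 in LbNOX livers and 9.68, 8.16 and 17.5 in luciferase livers. Without M15 alone none of the 5 was called, and each was lost also without M10 and without M13. With M3, M8 and M15 all left out (added after the data were seen), Hmox1, Id3, Mfge8 and Ccl2 were called and Il1rn was not. Il1rn was lost also in a fit of the compared groups alone. The call on Hmox1 was lost further without M11 or M12, those on Id3 and Il1rn without M12, and that on Ccl2 in 16 of 23 settings (its largest adjusted p was 0.20). Hepatocytes and other liver cells also express Hmox1, Id3, Mfge8 and Cxcl12, so these levels belong to the whole tissue. No gene of the remaining 11 lists passed; among them Lpl, the lipoprotein lipase, differed by 1.21 and Cx3cr1, a chemokine receptor of monocytes, by 0.98 (limma adjusted p 0.15 and 0.26).

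The difference between the ethanol effects in LbNOX and in luciferase livers was tested as an interaction. Of the members 0 of 8 were called by limma, where 227 of 13570 genes, 1.67%, were. The median difference was 0.55 on the log2 scale with 7 of 8 above 0. Cd68 had the smallest p, with a difference of 1.27 (SE 0.55, interval 0.10 to 2.45, limma adjusted p 0.29), made of 0.33 in LbNOX and -0.94 in luciferase livers.

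Marco had 1.35 (SE 0.86), and 0.41 without M15. On recovered reads it had 2.06 with DESeq2 and 2.06 with edgeR (adjusted p 0.22 and 0.31). Cd5l had 0.66, C1qc 0.56, Vsig4 0.53 and C1qb 0.22, with intervals that all included 0, and C1qa had 0.37 (interval -0.32 to 1.07). Clec4f had -0.02 (SE 0.78), the least of the 8. Without M15 the median was 0.30, with Cd5l at 0.42, C1qc at 0.37, C1qa at 0.23, C1qb at 0.13, Vsig4 at -0.014, Clec4f at -0.52 and Cd68 at 0.95. No listed gene passed, with Ccl2 at 2.87 and Id3 at 1.13 nearest to the threshold (limma adjusted p 0.064 and 0.068). The smallest adjusted p of any member over all alternatives was 0.14, for Cd68 without M8. Ethanol against water in luciferase livers and LbNOX against luciferase after ethanol share the luciferase ethanol libraries, so their values depend on each other.

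**Figure D2:**
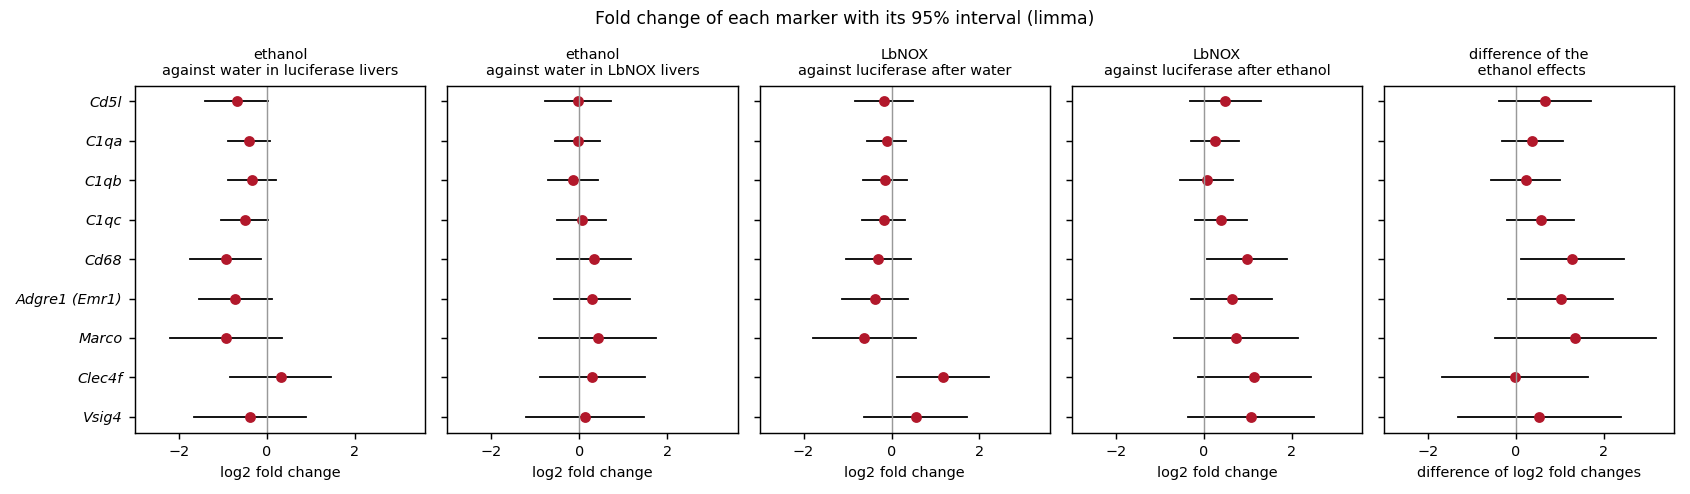
Log2 fold changes (horizontal axes; points) of 8 members and Adgre1 with the 95% interval of limma (lines) in the 4 comparisons and for the difference of the ethanol effects. The intervals that exclude 0 are that of Clec4f after water (0.11 to 2.22) and those of Cd68 for ethanol in luciferase livers (-1.75 to -0.13), for LbNOX after ethanol (0.07 to 1.88) and for the difference (0.10 to 2.45); none of these passes the adjustment.

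The libraries that stood apart for the members did so for some other gene lists as well. In M3 the median level of 17 other resident macrophage genes lay 0.88 above the genes' means on the log2 scale, in M8 0.65 and in M15 0.57, whereas the other 12 libraries lay between -0.47 and 0.22. Several lists of other cell types were high in these libraries too, though not always in them alone. Recruited monocyte genes stood at 1.499 in M3 and 0.61 in M8, T and NK cell markers at 1.62 and 0.42, and liver endothelial markers at 0.71 and 0.72, while hepatocyte markers stood at 0.02 in M3 and -0.40 in M8. M1 was also high for T and NK cell markers, at 0.87.

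In M15 the endothelial markers were at 0.38, the monocyte genes at 0.24, T and NK cell markers at 0.51, lipid-associated macrophage genes at 0.85, neutrophil markers at 0.98 and the hepatocyte markers at -0.01. Some other libraries lay higher than M15. Neutrophil markers stood at 2.61 in M13 and 1.00 in M11, and monocyte genes at 0.38 in M4 and 0.30 in M1. Over the groups the summed monocyte genes ran from 487 to 704 normalized counts in LbNOX ethanol, 363 to 767 in LbNOX water, 417 to 568 in luciferase ethanol and 421 to 1166 in luciferase water libraries. The summed endothelial markers ran from 2902 to 3960 in LbNOX ethanol, 3029 to 5001 in LbNOX water, 2342 to 3472 in luciferase ethanol and 2902 to 4705 in luciferase water libraries. None of the genes in these lists was at 0 in every library. The part of these cells in the members' differences was not tested.

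**Figure D3:**
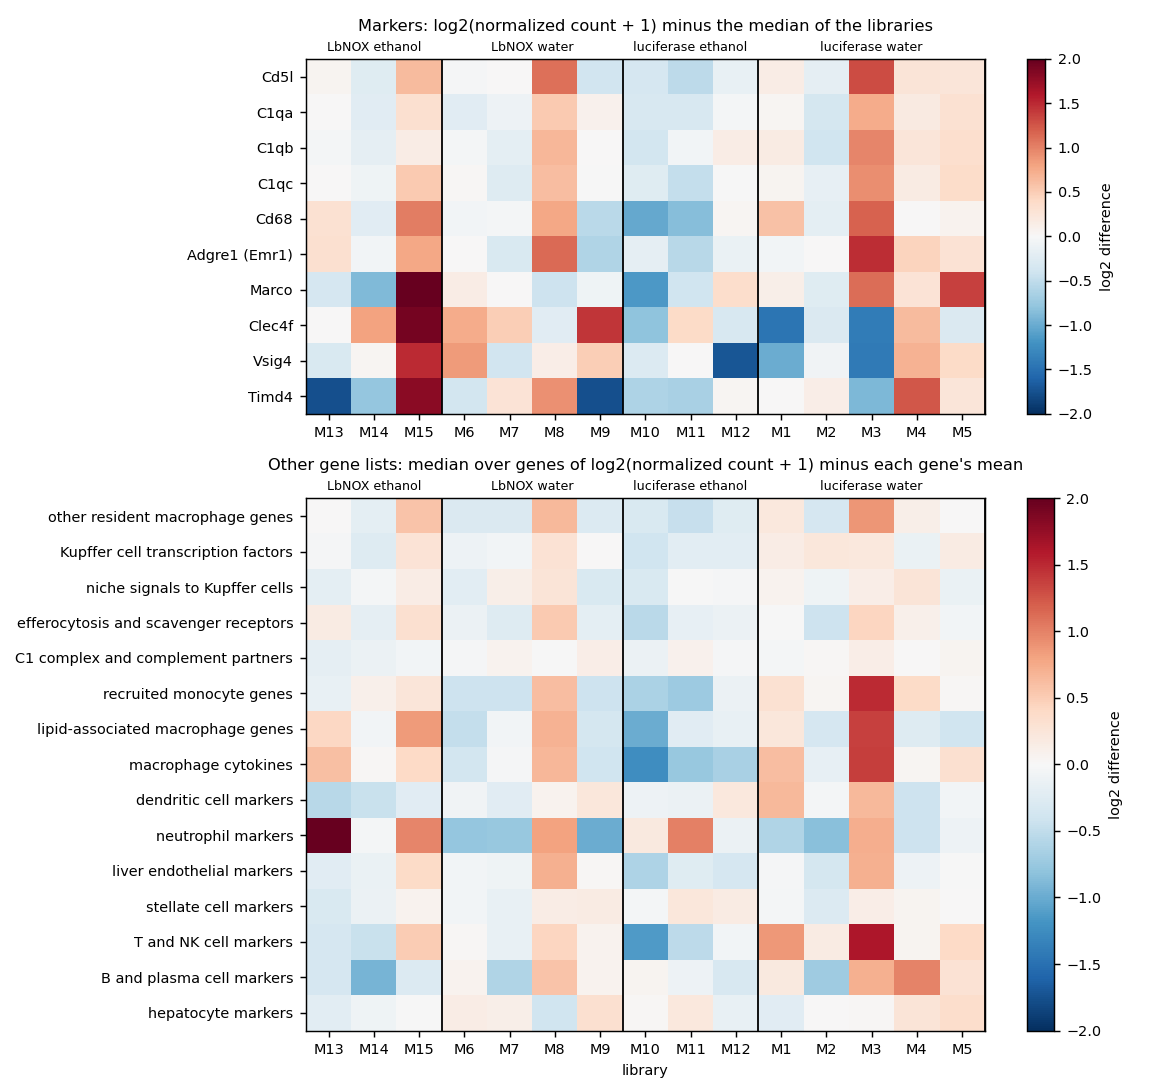
Colour shows log2 differences by library (columns, grouped) for each marker against the median of the 15 libraries (upper panel) and for 15 other gene lists as the median over genes against each gene's mean (lower panel); colours saturate at 2. M3 and M8 are high for Cd5l, C1q, Cd68, Adgre1 and several cell type lists, while M3 is low and M15 high for Clec4f and Vsig4.

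Across the 15 libraries the markers fell into a block and a pair, with Timd4 and Marco placed in neither. Both were read from the r values given here. Counts of passing pairs within and between them therefore describe the grouping and do not test it. Cd5l, Adgre1, Cd68 and the C1q chains varied together, with Pearson's r of 0.742 to 0.958 in their 15 pairs on the log2 scale. All 15 pairs passed a permutation test of r with p adjusted over the 45 pairs of the 10 genes, and 14 of 15 passed that of Spearman's rho (0.579 to 0.921). With values centred on the group means, r was 0.781 to 0.972. Without M3, M8 and M15 it was 0.357 to 0.855, and without the 2 libraries farthest from the median 0.414 to 0.885.

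The closest pair was Cd5l with Adgre1, with r = 0.958 and rho = 0.864 (adjusted permutation p 6.43e-05 and 0.00058), and r = 0.885 without M3 and M8. Clec4f and Vsig4 formed another pair, with r = 0.771 and rho = 0.746 (adjusted permutation p 0.0028 and 0.0068), r = 0.646 without M15 and M1, and r = 0.752 within groups. Timd4 had r of 0.178 with Clec4f, 0.354 with Vsig4 and 0.398 with Cd5l, at a few reads per library. It is counted with Clec4f and Vsig4 below by choice, since none of its pairs passed.

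Between Clec4f, Vsig4 and Timd4 on the one side and the 6 co-varying genes on the other, r ran from -0.311 to 0.398. Of these pairs 0 of 18 passed, for sets chosen from the same values. Clec4f had r = -0.253 with Cd5l (rho = -0.186, adjusted permutation p 0.52 and 0.67), which became -0.538 without M15 and M1. Marco had r of 0.186 to 0.653 with the others; 3 of 9 pairs passed by r and none by rho. In all, 19 of 45 pairs passed by r and 15 by rho, and 8 passed by r without M3, M8 and M15. The points are libraries of 4 groups with unequal depth, and low counts of Clec4f, Vsig4 and Timd4 lower their r.

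**Figure D4:**
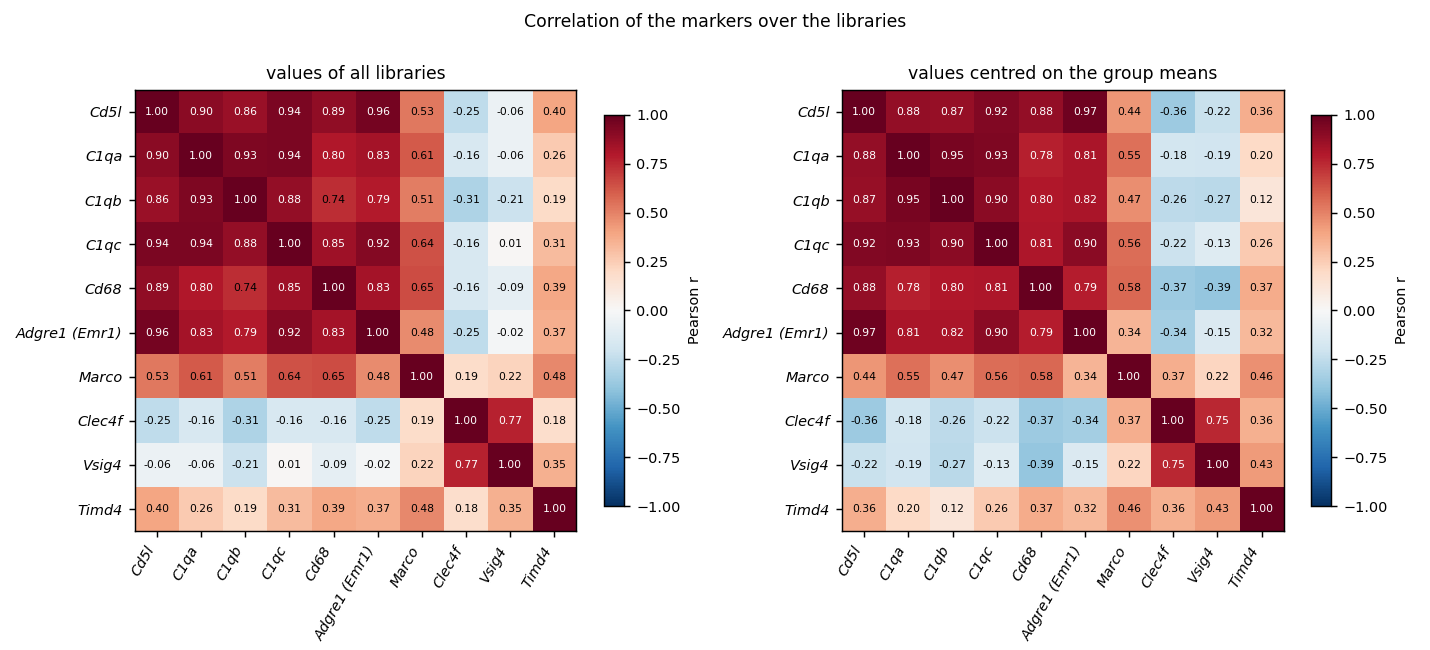
Pearson's r between each pair of markers on the log2 scale over 15 libraries (left) and after the group means were subtracted (right). The block of Cd5l, C1qa, C1qb, C1qc, Cd68 and Adgre1 holds r of 0.742 to 0.958 on the left, and Clec4f with Vsig4 has 0.771.

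The level of Clec4f relative to the C1q chains makes the split visible. As a percentage of the summed C1q normalized counts, Clec4f was 8.42 ± 4.28% in LbNOX ethanol, 6.94 ± 3.66% in LbNOX water, 4.24 ± 2.04% in luciferase ethanol and 2.95 ± 2.02% in luciferase water libraries (SD, n = 3, 4, 3 and 5). It was 0.809% in M3, the lowest, and 12.8% in M15, the highest, and the groups overlapped. No test was run on this percentage, which was formed after the values were seen.

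**Figure D5:**
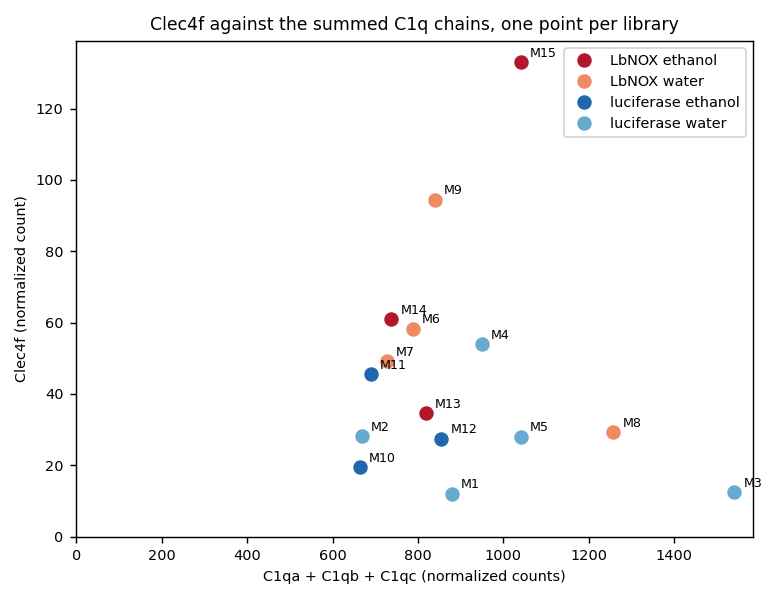
Normalized count of Clec4f (vertical axis) against the sum of C1qa, C1qb and C1qc (horizontal axis), 1 point per library, coloured by group. M3 has the highest C1q sum with a Clec4f of 12.5, and M15 the highest Clec4f, 133.

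The 10 genes that followed the mean standardized level of the 8 tested members most closely over the 15 libraries, among 9487 other genes with a mean of at least 100, had r of 0.834 to 0.855, given as a description. They were Fcgr2b (0.855), an inhibitory Fc receptor, Lyz2, the lysozyme of myeloid cells, Kdr, a VEGF receptor of endothelial cells, Etl4, Dab2, an endocytic adaptor, A830010M20Rik, Dnase1l3, a secreted DNase, Ptgs1, a cyclooxygenase, Spp1, the secreted glycoprotein osteopontin, and Nt5c3. Without M3, M8 and M15 the r of these 10 genes ran from 0.510 to 0.786.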

How the data were processed

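Liver RNA of 15 libraries was measured by mRNA sequencing (KAPA mRNA kit, per the labels' protocols). Per the submitters' processing notes, the tools were Salmon 1.5.1 and DESeq2 1.30.1 with genome mm10, with no role given for each. Values in the deposited table are a signal, normalized counts per gene, in which the authors divided each library by its own factor. The factor was read from the smallest step between values, and 100% of values then lay within 0.001 of whole reads.

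Tests were made with limma 3.58.1 (R 4.3.3; trend, robust) on log2(normalized count + 1), for genes that reached 10 in at least 3 libraries, in a single fit of 4 groups with p adjusted by Benjamini-Hochberg over 13570 genes; fold changes of low genes are understated on that scale. The plan had set this test for normalized values. edgeR 4.0.16 and DESeq2 1.42.0 on recovered reads were alternatives, as were a pseudocount of 5, no filter, quantile normalization, fits of the compared groups alone and omissions of libraries. Correlations used 100000 permutations. The fit was tested on simulated data. Members and lists were chosen with earlier results of these data known. All members are described; of each list, the genes called (up to 4) are named or, with none, that of the smallest p, of which a selection is given. Promoters are RefSeq's and positions GENCODE vM21.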

Additional observations from a re-analysis of the deposited data

Results flagged for a closer look

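Of 20 combinations of a marker with a group of 4 or 5 libraries, 3 had a highest library far from the others. Chance gives about 1 in 20 for independent, normally distributed values. The counts were not log-transformed. Cd5l and Adgre1 varied together (r = 0.958), so the flags, all in M3 or M8, were not separate events. Cd5l in LbNOX livers after water was 1468 normalized counts in M8, and the gap to the next library took 0.832 of the group's range. Cd5l in luciferase livers after water was 1685 in M3, with a gap of 0.803 of the range. Adgre1 (listed as Emr1) in the same group was 317 in M3, with a gap of 0.78 of the range. Groups of 3 libraries, LbNOX and luciferase after ethanol, were not examined in this way.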

How the results depend on the processing

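The count of 0 members called stood under all 23 alternatives in each comparison. Of 1035 values of 9 markers (Adgre1 included) under these alternatives, 994 kept their direction and 41 reversed, none of them called. Part of the 994 could not have moved. Dropping the filter, fitting the compared groups alone or omitting a library of another group leaves a limma log2 fold change as it was. The log2 fold changes that reversed were, for ethanol in LbNOX livers without M3 and M8, Cd5l 0.28, C1qa 0.11 and C1qb 0.049; without M3, M8 and M15 (added after the data were seen), Clec4f -0.49, Vsig4 -0.45, Cd5l 0.037 and Marco -0.63; for LbNOX after ethanol without those 3, Marco -0.21 and C1qb -0.025; and for the difference of the ethanol effects in Clec4f, 0.027 with a pseudocount of 5, 0.20 by edgeR and 0.19 by DESeq2. The cause was not tested.

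Leaving out 1 library at a time, values that crossed 0 ran as follows. For ethanol in LbNOX livers, Clec4f ran from -0.21 to 0.75, Vsig4 from -0.40 to 0.50, Cd5l from -0.27 to 0.28, Marco from -0.52 to 1.03, C1qa from -0.18 to 0.11, C1qb from -0.23 to 0.049 and C1qc from -0.13 to 0.23. For ethanol in luciferase livers, Clec4f ran from -0.0025 to 0.61 and Vsig4 from -0.72 to 0.14. For LbNOX after water, C1qa ran from -0.26 to 0.028, C1qb from -0.34 to 0.025 and Cd5l from -0.48 to 0.062. For LbNOX after ethanol, C1qb ran from -0.075 to 0.18 and Marco from -0.21 to 1.34. For the difference, Clec4f ran from -0.52 to 0.44 and Vsig4 from -0.014 to 0.89.

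Genes called over the whole table moved more. Ethanol in luciferase livers called 1052, 611 with those groups alone, 467 without M10, 636 without M12 and 1621 by DESeq2. Ethanol in LbNOX livers called 1, 28 without M14, 116 without M3 and M8 and 282 by DESeq2. LbNOX after ethanol called 822, 513 without M3, M8 and M15, 316 to 940 leaving out 1 library and 1349 by DESeq2. The difference called 227, 382 without M3 and M8, 70 to 402 leaving out 1 library and 633 by DESeq2. Pairs of markers past the test of r were 19, and 8 without M3, M8 and M15. Depth limits Timd4, Vsig4 and Clec4f. No paired analysis was possible because the table's columns carry no replicate number.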

Other observations

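Neutrophil markers were higher in LbNOX livers after ethanol than after water in 6 of 6 genes, beside 49.5% of all genes tested. Their median log2 fold change was 1.98, but none passed limma's adjusted test. S100a8, a calcium-binding protein of neutrophils, had the smallest p, with a log2 fold change of 2.83 (limma adjusted p 0.26). The summed markers ran from 185 to 715 normalized counts after ethanol and from 114 to 305 after water, and the groups overlapped. M13 was the highest library, at 715, and without it, an alternative added after the data were seen, the median was 1.25, again with 6 of 6 above 0 (S100a8 limma adjusted p 0.69), while without M8, the highest after water, it was 2.59.

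The 9 recruited monocyte genes were all below 0 on the log2 scale for ethanol in luciferase livers, with a median of -0.92, beside 49.4% of all genes tested. In LbNOX livers 7 of 9 were above 0, with a median of 0.41, beside 49.5% of all genes tested. None of the monocyte genes passed limma's test in either comparison or in their difference, where the median was 1.19 and Ms4a4c had the smallest p (2.58, adjusted p 0.22). The summed monocyte genes overlapped between ethanol and water in each construct. After water the highest libraries were M3 at 1166 (luciferase) and M8 at 767 (LbNOX). The other water libraries ran from 421 to 688 for luciferase and from 363 to 464 for LbNOX.

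The genes closest to Clec4f over the 15 libraries were Osbpl2 (r = 0.883), Ccpg1 (0.826) and Zfp84 (0.824), and Ccpg1 was also the closest to Vsig4 (0.814). Those closest to Cd5l were Sdc3 (0.965), Ptgs1 (0.955) and Csf1r (0.951), the receptor for the macrophage growth factor CSF1. These r values are descriptions of genes picked after their values were seen.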
